A study of Mus musculus with 3 samples.

Results

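The 10 genes described here encode the MHC class II molecule of the mouse, the proteins that load peptide onto it, and its transactivator. They are Cd74, H2-Aa, H2-Ab1, H2-Eb1, H2-DMa, H2-DMb1, H2-DMb2, H2-Oa, H2-Ob and Ciita. They were taken by symbol from the 31053 genes in the files, and all 10 were found. Each was read in B cells, defined by at least 3 unique molecular identifiers (UMIs, each counted as 1 captured mRNA) of Cd79a, Cd79b and Ms4a1 together, and in monocytes, defined by at least 3 UMIs of Csf1r, Ms4a6c and F13a1. T cells, with at least 2 UMIs of Cd3d, Cd3e, Cd3g and Trac, served as a check on free RNA. In every class S100a8 and S100a9, the main neutrophil transcripts, made up under 5% of a cell's UMIs, and cells that met 2 of these 3 definitions were left out.

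MHC class II presents peptides from the endosomal route to CD4+ T cells, and in blood it is made by B cells, dendritic cells and some monocytes. The alpha chain of I-A (H2-Aa) pairs with its beta chain (H2-Ab1), and the beta chain of I-E is encoded by H2-Eb1. The gene of the I-E alpha chain is not among the genes described here. Levels of H2-Eb1 therefore describe its RNA only, and whether an I-E molecule is made in these mice was not tested. Cd74, the invariant chain, fills the groove until proteases remove it. The DM heterodimer (H2-DMa with H2-DMb1 or H2-DMb2) then exchanges the remaining fragment for peptide, and the DO heterodimer (H2-Oa with H2-Ob) restrains DM. Ciita, the class II transactivator, is recruited by factors bound to the promoters of these genes and does not itself bind DNA.

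C57BL/6J mice of 3 groups were represented, each by 1 single-cell library of blood cells made 12 h after the procedure: HDCA with CLP (HDCA+CLP), CMC with CLP (CLP), and Sham. CLP is cecal ligation and puncture, a surgical model of abdominal sepsis. HDCA is the usual abbreviation of the bile acid hyodeoxycholic acid. The labels do not spell out CMC, name neither agent for Sham, and give no dose, sex, age or number of animals per library. With 1 library a group no test between groups was possible, and every interval below covers counting error only, not the variation between animals.

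The deposited matrices held 12205 barcodes with 95178381 UMIs in HDCA+CLP, 11387 with 87031721 UMIs in CLP and 7159 with 42427093 UMIs in Sham. B cells numbered 275 in HDCA+CLP, 278 in CLP and 2712 in Sham, at a median of 2706, 3256 and 4264 UMIs. Monocytes numbered 283, 733 and 291, at a median of 12896, 14057 and 10592 UMIs in the same order. Pairs of libraries shared 17 to 34 cell barcodes, at most 0.363% of the smaller library. The samples are labelled mononuclear cells, yet cells with at least 5% of UMIs from S100a8 and S100a9 numbered 9386, 5313 and 256. B cells carried UMIs of all 12 B cell markers in each library, and monocytes those of all 15 monocyte markers. Both lists include genes of the definitions. T cells of Sham also had UMIs of all 12 and all 15, so the presence of a UMI does not set the classes apart.

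The promoters of class II genes share short elements, the X and Y boxes, which are shown here because all 10 genes had a ratio of the same sign between CLP and Sham in B cells. RefSeq windows (build GRCm38.p6) were on hand for 7 of the 10 genes. The Y box core TGATTGG, searched on both strands in the 250 bases before the start site, was found in 6 of these 7 genes, H2-DMa being the exception, and in 8.38% of all 27025 genes with a window. The X2-type motif ATGATGC was found in 4 of the 7 and in 2.33% of all these genes. H2-Aa instead held TGACGTCA, which 1.77% of all these genes hold. Each line runs 5′ to 3′ on the gene's strand and ends before the start site. Capitals mark these motifs, which do not overlap each other.
H2-Aa (chr17:34287852-34287953, - strand): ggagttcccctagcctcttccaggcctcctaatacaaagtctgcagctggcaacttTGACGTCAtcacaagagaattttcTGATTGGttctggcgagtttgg
H2-Eb1 (chr17:34305726-34305827, + strand): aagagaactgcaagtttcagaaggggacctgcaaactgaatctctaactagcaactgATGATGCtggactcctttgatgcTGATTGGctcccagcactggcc
H2-DMb1 (chr17:34153048-34153149, + strand): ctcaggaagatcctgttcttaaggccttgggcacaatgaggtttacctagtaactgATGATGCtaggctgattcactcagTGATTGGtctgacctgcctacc
H2-DMb2 (chr17:34145077-34145178, + strand): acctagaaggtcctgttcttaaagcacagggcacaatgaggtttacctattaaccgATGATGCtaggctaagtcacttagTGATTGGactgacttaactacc
H2-Oa (chr17:34092254-34092355, + strand): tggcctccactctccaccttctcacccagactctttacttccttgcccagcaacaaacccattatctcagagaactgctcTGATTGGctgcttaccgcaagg
H2-Ob (chr17:34238766-34238867, + strand): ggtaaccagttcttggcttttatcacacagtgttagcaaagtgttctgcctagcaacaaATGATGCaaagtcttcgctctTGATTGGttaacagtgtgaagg
All matches lay on the gene's own strand. The Y box core began 50 bases before the start site in H2-Aa, 61 in H2-Eb1, 63 in H2-DMb1, 92 in H2-DMb2, 45 in H2-Oa and 59 in H2-Ob. Where an upstream motif was matched, 14 to 17 bases separated it from the Y box core. H2-DMb1 and H2-DMb2 had the same spacing of 17 bases. A match describes the letters only and is no evidence that a factor is bound.

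B cells held by far the highest class II levels of the 3 classes, in each library. Levels are in CPM, a gene's UMI count scaled to one common total of UMIs, after summing over the cells of a class. These are counts of 3′ ends, 1 per molecule, and are not divided by gene length. Cd74, H2-Aa, H2-Ab1 and H2-Eb1 together stood at 14141 CPM (13891 to 14395) in B cells of HDCA+CLP, 12086 CPM (11888 to 12288) in CLP and 25339 CPM (25251 to 25427) in Sham. Monocytes had 1654 CPM (1614 to 1696) of these 4 genes in HDCA+CLP, 2589 CPM (2559.7 to 2619) in CLP and 1902 CPM (1853 to 1952) in Sham. None of these intervals overlap within a class, but they do not cover the clustering of UMIs in a minority of monocytes, described below. On these values B cells were highest in Sham, and monocytes in CLP. The monocyte order depends on the cells left out. With cells that met 2 definitions kept, monocytes had 2500 CPM in CLP and 2715 CPM in Sham.

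T cells, which should lack these transcripts, gave low values. The 4 genes stood at 22.3 CPM in T cells of HDCA+CLP, 19.5 CPM in CLP and 70.7 CPM in Sham, far below the monocyte levels above. After thinning to 2000 UMIs a cell, 35.7%, 49.0% and 24.1% of monocytes had a Cd74 UMI, against 1.65%, 1.92% and 5.29% of T cells, in the order HDCA+CLP, CLP and Sham. The level that B cell RNA alone would give in T cells was scaled from 7 other B cell markers (Cd22, Pax5, Ebf1, Blk, Ighd, Cr2 and Fcer2a), which had 27, 78 and 270 UMIs there. For Cd74 the observed T cell level was 0.907 times the scaled value in HDCA+CLP, 0.588 times in CLP and 0.720 times in Sham. H2-DMa was different: at 41.2 CPM, 34.7 CPM and 26.9 CPM in T cells it was 67.6, 42.0 and 16.4 times the scaled value. H2-Oa stood at 10.6 CPM, 10.4 CPM and 8.96 CPM, or 29.4, 25.1 and 9.96 times the scaled value, and H2-Ob was 14.5, 9.81 and 10.1 times it. The T cell levels of these DM and DO genes were thus not in the ratio to Cd74 that B cell RNA would give.

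**Figure D1:**
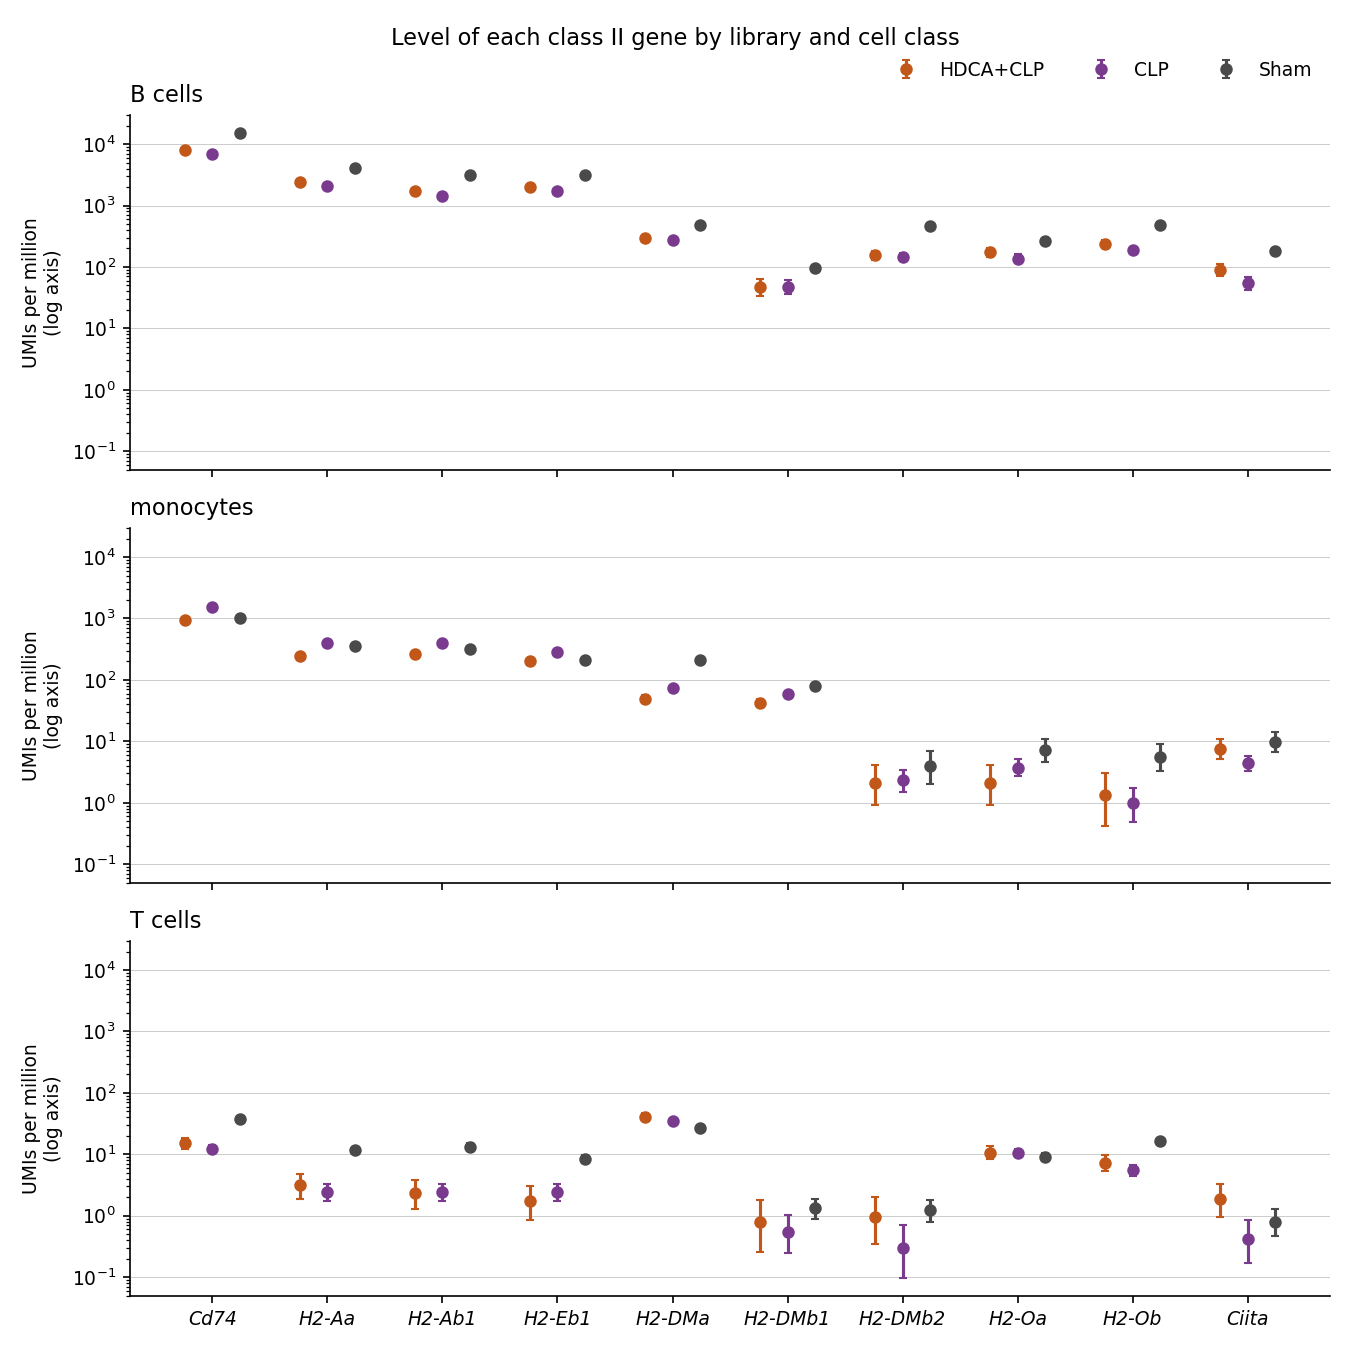
Level of each of the 10 genes in CPM (log axis) in B cells, monocytes and T cells of the HDCA+CLP, CLP and Sham libraries; points are 1 library each and bars are 95% Poisson intervals. H2-DMb1 sits at a like height in B cells and monocytes, whereas H2-DMb2, H2-Oa, H2-Ob and Ciita drop by more than 10-fold, and H2-DMa stands out among the T cell levels.

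In B cells of CLP all 10 genes were lower than in Sham, and 5 of the 10 were at least 2-fold lower. Of the 10219 genes with at least 20 UMIs over both libraries, 57.6% were lower, 15.3% at least 2-fold lower and 7% at least 2-fold higher. The median log2 ratio (CLP over Sham) was -1.06 over the 10 genes and -0.14 over all measured genes. The intervals of all 10 ratios lay below 0. That the class II genes as a group were lower in CLP was known from these data before the genes were chosen, so the count is a description.

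RNA of Cd74 and of the chain genes H2-Aa, H2-Ab1 and H2-Eb1 differed between CLP and Sham by amounts close to each other. Cd74 stood at 8027 CPM in HDCA+CLP, 6831 CPM in CLP and 14969 CPM in Sham. H2-Aa was at 2428 CPM, 2110.5 CPM and 4036 CPM in the same libraries. Both were lowest in CLP, slightly higher in HDCA+CLP and highest in Sham. H2-Ab1 followed the same order, at 1703 CPM, 1427 CPM and 3153 CPM. H2-Eb1 did too, at 1983 CPM, 1718 CPM and 3181 CPM. Log2 ratios of CLP over Sham were -1.13 (-1.16 to -1.10) for Cd74, -0.94 (-0.99 to -0.88) for H2-Aa, -1.14 (-1.22 to -1.07) for H2-Ab1 and -0.89 (-0.95 to -0.82) for H2-Eb1. H2-Eb2, another class II beta chain locus, was at 12.9 CPM in CLP and 41.2 CPM in Sham (-1.68, -2.53 to -0.94).

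The transactivator was also lower in B cells of CLP. Ciita stood at 90.7 CPM (71.7 to 113) in HDCA+CLP, 54.0 CPM (41.5 to 69.1) in CLP and 185 CPM (177 to 193) in Sham, with no overlap of the intervals. Its log2 ratio of CLP over Sham was -1.78 (-2.16 to -1.42), below those of the 4 genes in the paragraph above and with an interval that overlaps that of H2-DMb2, described next. At equal depth, 15.0% of B cells of HDCA+CLP, 12.98% of CLP and 30.8% of Sham had a Ciita UMI.

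Among the peptide-loading genes, the DM beta chain H2-DMb2 and the DO beta chain H2-Ob had the lowest ratios. H2-DMb2 was at 155 CPM in HDCA+CLP, 147 CPM in CLP and 467 CPM in Sham, a log2 ratio of CLP over Sham of -1.67 (-1.90 to -1.45). H2-DMb1, its neighbour on chromosome 17, was at 46.5 CPM, 48.0 CPM and 95.6 CPM, a ratio of -0.995 (-1.41 to -0.61). The intervals of these 2 paralogs do not overlap. H2-Ob stood at 237 CPM in HDCA+CLP, 188 CPM in CLP and 481 CPM in Sham (-1.36, -1.56 to -1.16). H2-Oa stood at 173 CPM, 137 CPM and 262 CPM (-0.94, -1.17 to -0.71). H2-DMa, the DM alpha chain, had 293 CPM, 272 CPM and 479 CPM, and the smallest difference of the 10 (-0.81, -0.98 to -0.65).

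Between HDCA+CLP and CLP, 9 of the 10 genes were higher in B cells of HDCA+CLP, by little. Of 6949 measured genes, 56.5% were higher. None of the 10 genes reached 2-fold in either direction, where 3.94% of measured genes were at least 2-fold higher and 2.62% at least 2-fold lower. The median log2 ratio (HDCA+CLP over CLP) was 0.22, against 0.08 over all genes. Ciita had the highest ratio, 0.75 (0.25 to 1.25), resting on 78 and 63 UMIs. Cd74 was at 0.23 (0.19 to 0.28), H2-Aa at 0.20 (0.12 to 0.29), H2-Ab1 at 0.26 (0.15 to 0.36) and H2-Eb1 at 0.21 (0.11 to 0.30). H2-Oa was at 0.34 (0.01 to 0.67) and H2-Ob at 0.34 (0.06 to 0.62). The intervals of H2-DMa, H2-DMb1 and H2-DMb2 included 0, and H2-DMb1 was at -0.04 (-0.67 to 0.57). Both comparisons use the CLP library, so the sign of the one bears on the sign of the other.

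**Figure D2:**
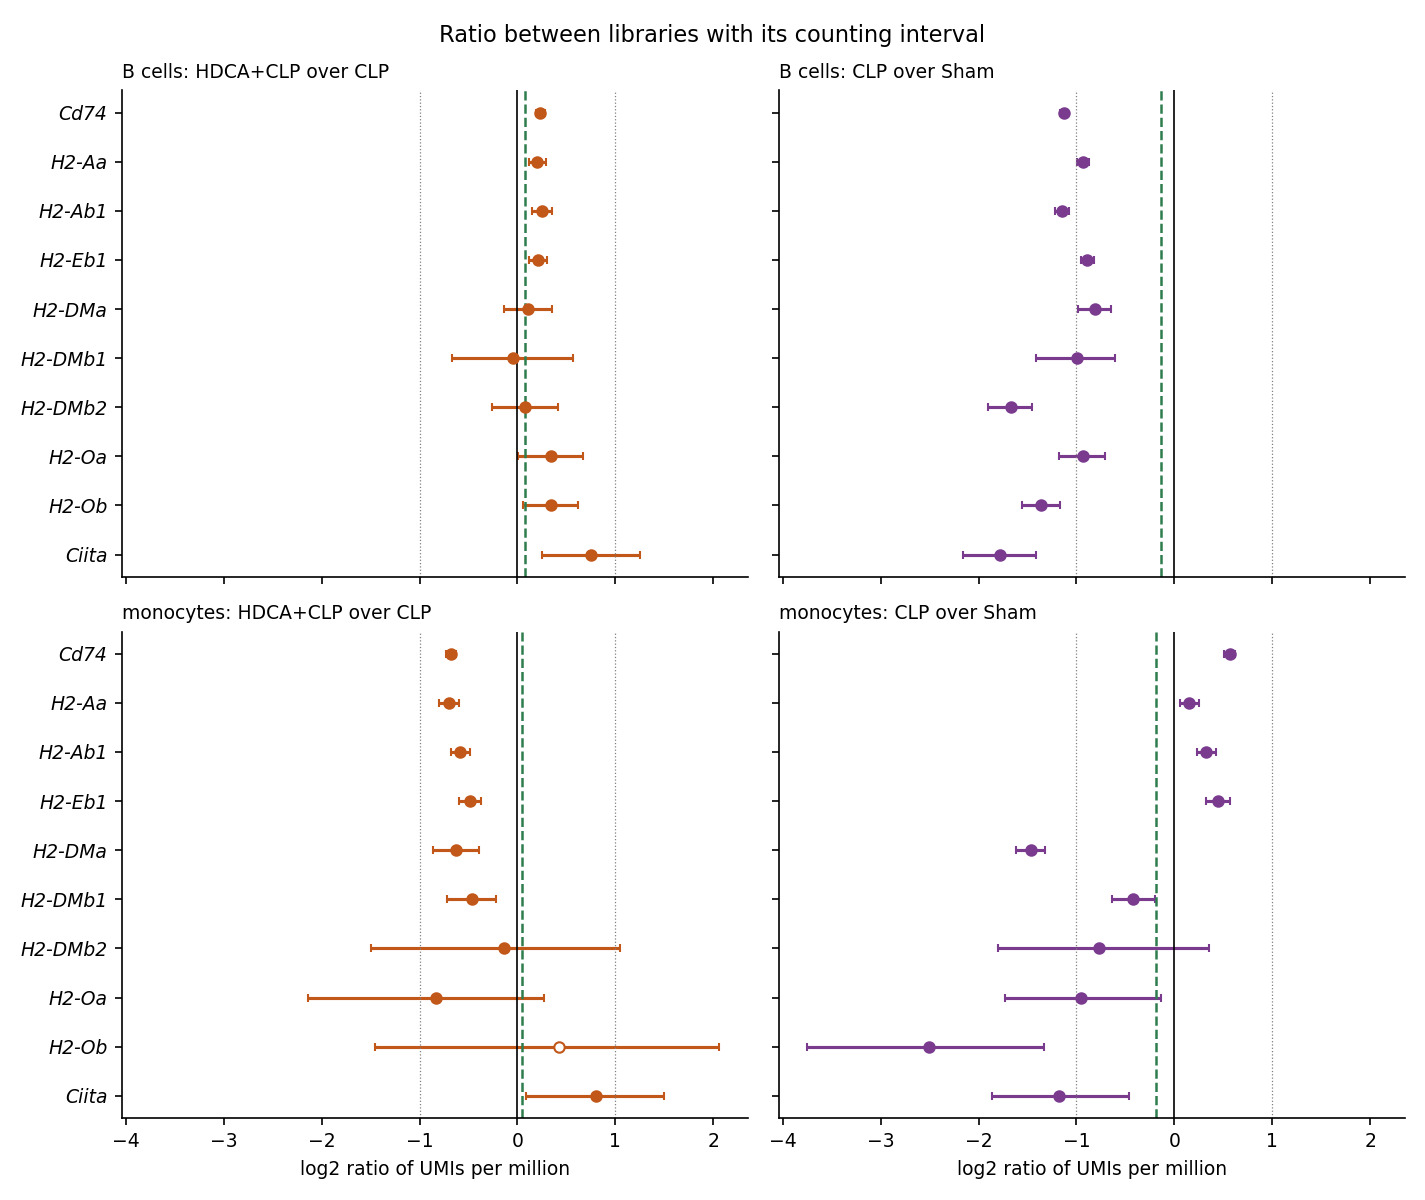
Log2 ratio of CPM for each gene, HDCA+CLP over CLP at left and CLP over Sham at right, in B cells (top) and monocytes (bottom), with 95% counting intervals; the dashed line is the median of all measured genes, dotted lines mark 2-fold, and the open point had under 20 UMIs. In B cells all CLP over Sham ratios lie between -1.78 and -0.81, while in monocytes Cd74 and the 3 chain genes lie above 0 and the other 6 below.

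The lower class II level was spread over the B cells: few cells of any library were without class II UMIs. With each cell thinned to 2000 UMIs, the 4 genes Cd74, H2-Aa, H2-Ab1 and H2-Eb1 together had a median of 30 UMIs a cell in HDCA+CLP, 27 in CLP and 53 in Sham. Their 10th percentiles were 13, 10 and 33. At least 10 of these UMIs were found in 95.4% (91.9 to 97.7) of B cells of HDCA+CLP, 91.2% (87.1 to 94.4) of CLP and 99.5% (99.2 to 99.8) of Sham. The bulk of the cells thus lay lower in HDCA+CLP and in CLP than in Sham. Thinning left out 35, 16 and 60 shallower cells.

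Other genes differed in the same B cells. The 6 B cell markers read outside the definition (Cd22, Pax5, Ebf1, Blk, Fcmr and Ighd) had log2 ratios of CLP over Sham between -1.59 for Ighd and -0.49 for Blk. Measured relative to the median of these markers, the class II median was 0.15 and 7 of the 10 genes were higher in CLP, so the direction depends on the scale. Between HDCA+CLP and CLP the markers lay between 0.01 for Fcmr and 0.75 for Pax5, and relative to their median the class II median was -0.17 with 1 of 10 genes higher. Fcer2a and Cr2, receptors of mature B cell subsets, differed more, with log2 ratios of CLP over Sham of -4.64 and -4.15. Cd79a, part of the definition, stood at 1667 CPM in HDCA+CLP, 1453 CPM in CLP and 3447 CPM in Sham. The 9 neutrophil markers summed to 7135 CPM, 4427 CPM and 157 CPM in B cells, the 5 NK cell markers to 4.65 CPM, 798 CPM and 91.4 CPM, the 4 plasma cell markers to 1142 CPM, 858 CPM and 414 CPM, and the 4 red cell markers to 1033 CPM, 2.57 CPM and 10.7 CPM. T cell markers summed to at most 47.1 CPM, with Cd3e at 0 in HDCA+CLP and in CLP. Cells that also met the T cell definition, which includes Cd3e, had been left out, so these low T cell values follow in part from the selection. The part of these RNAs in the class II result was not tested. Without the 3, 2 and 3 cells with a Jchain UMI (Jchain marks plasma cells), the median log2 ratio of CLP over Sham was -0.97. The defining genes gave a median of 8 UMIs a B cell in HDCA+CLP, 10 in CLP and 27 in Sham. In cells with 3 to 9 such UMIs and in those with 10 or more, Cd74, H2-Aa, H2-Ab1 and H2-Eb1 together stood at 14544 CPM and 13750.3 CPM in HDCA+CLP, 12023 CPM and 12134 CPM in CLP, and 24987 CPM and 25344 CPM in Sham. Single genes differed more between these cells: H2-Aa was at 2691 CPM and 2173 CPM in HDCA+CLP, and H2-DMa at 220 CPM (181 to 265) and 312 CPM (271 to 357) in CLP.

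**Figure D3:**
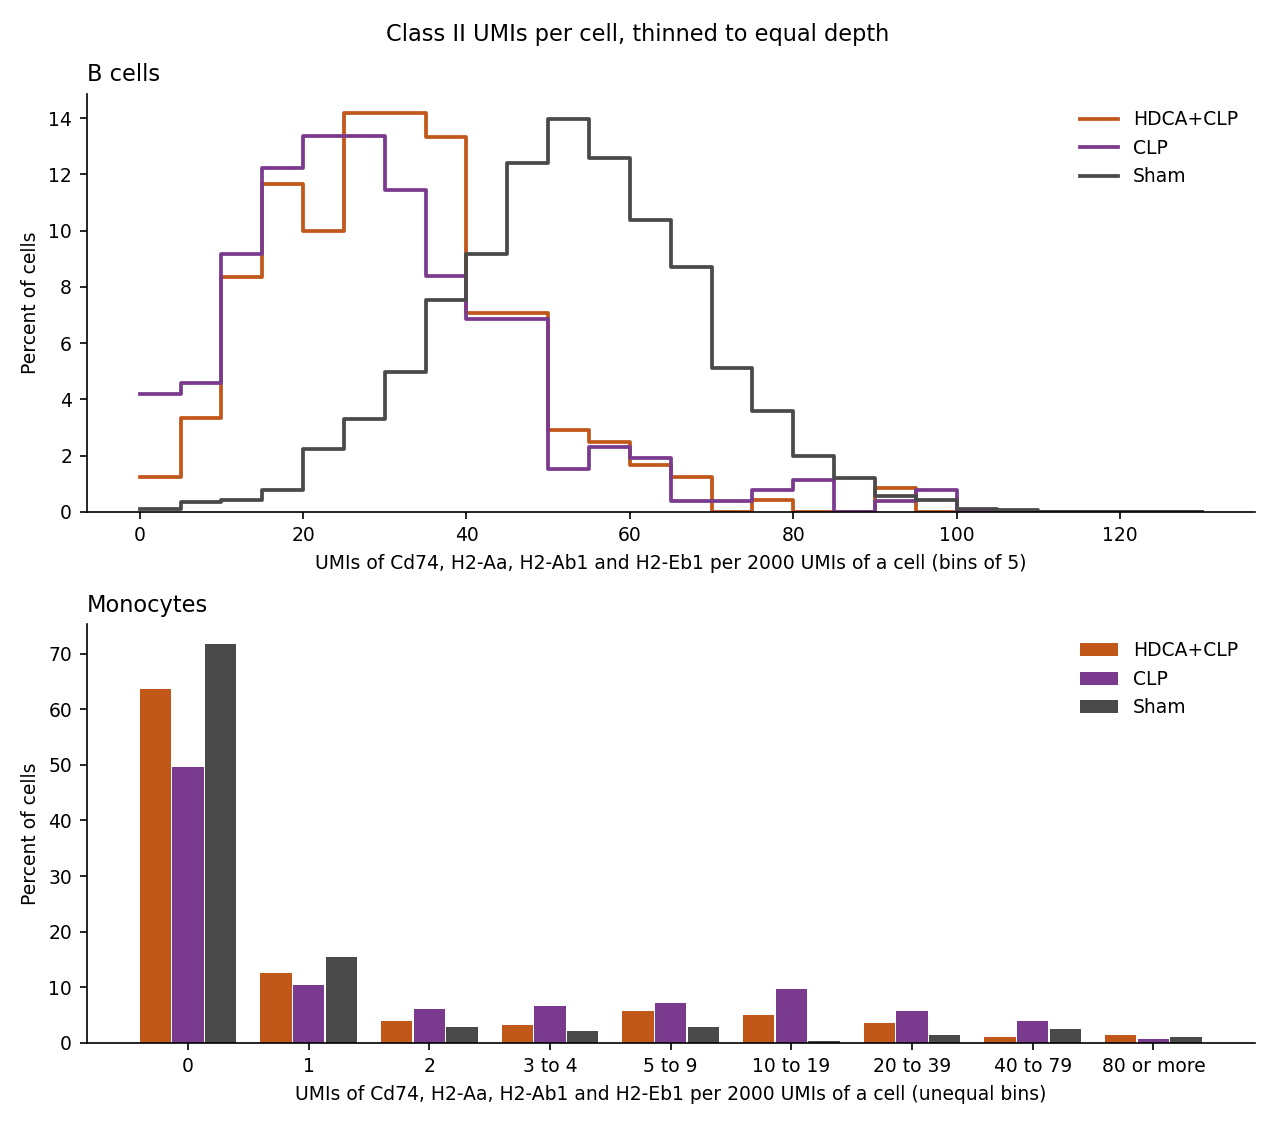
Share of cells (percent) by the number of UMIs of Cd74, H2-Aa, H2-Ab1 and H2-Eb1 in a cell thinned to 2000 UMIs, in HDCA+CLP, CLP and Sham; B cells are in bins of 5, and monocytes in unequal bins. The B cells of HDCA+CLP and CLP sit at lower numbers than those of Sham (medians 30, 27 and 53), whereas most monocytes have 0 or 1 such UMI and a minority has many.

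The factors that act on class II promoters and on Ciita were read from lists chosen with earlier results of these data known. Of the 7 promoter factors, all were lower in B cells of CLP than of Sham, 3 of them at least 2-fold, with a median of -0.71. Over all measured genes 57.6% were lower, 15.3% at least 2-fold lower and 7% at least 2-fold higher, with a median of -0.14. The 3 promoter factors at least 2-fold lower were Creb1, Nfya and Rfxank. Creb1, which binds the X2 box, was at 30.8 CPM in CLP and 85.5 CPM in Sham (-1.47, -1.99 to -0.99). Nfya, a subunit of the Y box factor NF-Y, was at 8.57 CPM and 28.4 CPM (-1.73, -2.80 to -0.83). Rfxank, a subunit of the RFX complex, was at 3.43 CPM and 9.88 CPM (-1.53, -3.42 to -0.13). Its CLP value lay near 2.57 CPM, which is 3 UMIs in B cells of CLP. Of 9 regulators of Ciita, 3 were at least 2-fold higher and 2 at least 2-fold lower, with a median of 0.46. The higher ones were Prdm1, Irf1 and Socs1. Prdm1 is a repressor of Ciita in plasma cells and was at 15.4 CPM in CLP and 1.99 CPM in Sham (2.95, 1.99 to 3.89). Irf1, an interferon-induced activator of Ciita, was at 154 CPM and 56.3 CPM (1.45, 1.21 to 1.69), and Socs1, an inhibitor of interferon signalling, at 49.7 CPM and 16.7 CPM (1.57, 1.13 to 1.997). Pax5, a B cell identity factor, was lower, at 128 CPM and 356 CPM (-1.48, -1.72 to -1.24), as was Irf2 at 122 CPM and 298 CPM (-1.29, -1.55 to -1.05). Spi1 was at 60.8 CPM and 106 CPM (-0.80, -1.16 to -0.45).

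Genes of antigen processing and of the surface life of class II were split in B cells. Of 9 processing genes, 1 was at least 2-fold higher in CLP than in Sham and 2 at least 2-fold lower (median -0.19). Lgmn, an asparagine endopeptidase, was at 147 CPM in CLP and 49.9 CPM in Sham (1.56, 1.30 to 1.802), and Ctsz at 339 CPM and 303 CPM (0.16, 0.01 to 0.31). Cst3, an inhibitor of cysteine proteases, was at 89.97 CPM and 295 CPM (-1.71, -2.01 to -1.43) and Ctsh at 136 CPM and 301 CPM (-1.14, -1.38 to -0.91). Ctss, the protease that trims the invariant chain in B cells, was at 218 CPM and 370.5 CPM (-0.77, -0.96 to -0.58). Of 8 measured genes of turnover and costimulation, 4 were at least 2-fold higher and 3 at least 2-fold lower (median 0.09). Cd86, a ligand of CD28, was at 97.7 CPM in CLP and 31.5 CPM in Sham (1.63, 1.32 to 1.94), Cd274, which encodes PD-L1, at 42.8 CPM and 16.8 CPM (1.35, 0.88 to 1.801), and Cd83, which protects surface class II from ubiquitination, at 130.2 CPM and 60.2 CPM (1.11, 0.85 to 1.37). March1, the ligase that ubiquitinates class II, was at 85.7 CPM and 308 CPM (-1.84, -2.14 to -1.56), Icosl, the ligand of ICOS, at 8.57 CPM and 58.1 CPM (-2.76, -3.83 to -1.87), and Pdcd1lg2, which encodes PD-L2, at 1.71 CPM and 8.68 CPM (-2.34, -5.40 to -0.45). The CLP value of Pdcd1lg2 lay below 2.57 CPM, which is 3 UMIs in B cells of CLP.

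Between HDCA+CLP and CLP 3 genes of these lists reached 2-fold in B cells: Bcl6 and Icosl were higher in HDCA+CLP, on 24 and 15 UMIs against 16 and 10, and Irf4 was lower. Bcl6 and Icosl are named here because they are so few, after their values were seen. Over all measured genes 3.94% were at least 2-fold higher and 2.62% at least 2-fold lower, and the median was 0.08. The list medians were 0.40 over 5 measured promoter factors, 0.44 over 9 regulators of Ciita, 0.22 over 9 processing genes and 0.12 over 6 genes of turnover and costimulation. Pax5 was at 214 CPM in HDCA+CLP and 128 CPM in CLP (0.75, 0.43 to 1.07), Irf2 at 177 CPM and 122 CPM (0.54, 0.20 to 0.88), Irf1 at 216 CPM and 154 CPM (0.49, 0.18 to 0.79) and Creb1 at 54.7 CPM and 30.8 CPM (0.83, 0.17 to 1.49). Irf4, a factor of activated B cells, was at 19.8 CPM in HDCA+CLP and 48.0 CPM in CLP (-1.28, -2.16 to -0.47), and Irf8 at 352 CPM and 425 CPM (-0.27, -0.48 to -0.06). March1 was at 152 CPM in HDCA+CLP and 85.7 CPM in CLP (0.83, 0.44 to 1.22), and Cd83 at 82.6 CPM and 130.2 CPM (-0.66, -1.08 to -0.24). Ctss was at 265 CPM and 218 CPM (0.28, 0.02 to 0.55).

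In monocytes the 10 genes did not share a sign. Between CLP and Sham, Cd74 and the 3 chain genes were higher in CLP and the other 6 lower, 3 of them at least 2-fold. Of 10317 measured genes, 59.6% were lower, 17% at least 2-fold lower and 11.1% at least 2-fold higher. The median log2 ratio was -0.59 over the 10 genes and -0.19 over all. Cd74 stood at 943 CPM in HDCA+CLP, 1512 CPM in CLP and 1021 CPM in Sham, a ratio of CLP over Sham of 0.57 (0.51 to 0.62). H2-Aa was at 244 CPM, 397 CPM and 357 CPM (0.15, 0.06 to 0.25). H2-Ab1 was at 265 CPM, 397 CPM and 316 CPM (0.33, 0.23 to 0.43), and H2-Eb1 at 203 CPM, 284 CPM and 208 CPM (0.45, 0.32 to 0.57). In these 4 genes CLP was the highest library.

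H2-DMa was instead highest in Sham in monocytes. It stood at 48.6 CPM (41.8 to 56.1) in HDCA+CLP, 75.1 CPM (70.1 to 80.3) in CLP and 208 CPM (192 to 225) in Sham, a ratio of CLP over Sham of -1.47 (-1.62 to -1.32). H2-DMb1 was at 42.3 CPM, 58.4 CPM and 78.2 CPM (-0.42, -0.64 to -0.20). The low genes gave few UMIs. Ciita had 29 UMIs in HDCA+CLP, 49 in CLP and 30 in Sham, or 7.62 CPM, 4.37 CPM and 9.86 CPM (-1.17, -1.86 to -0.47). H2-Ob had 5, 11 and 17 UMIs, or 1.31 CPM, 0.981 CPM and 5.59 CPM (-2.51, -3.75 to -1.33). H2-Oa had 8, 42 and 22 UMIs, or 2.10 CPM, 3.75 CPM and 7.23 CPM (-0.95, -1.73 to -0.13). H2-DMb2, with 8, 26 and 12 UMIs, had an interval that included 0 (-0.77, -1.804 to 0.36). The DO genes and Ciita were thus lowest in CLP or HDCA+CLP and highest in Sham, on few UMIs.

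Between HDCA+CLP and CLP, 8 of 9 measured genes were lower in monocytes of HDCA+CLP, none by 2-fold. Of 10241 measured genes, 44.1% were lower, 2.8% at least 2-fold lower and 1.56% at least 2-fold higher. The median log2 ratio was -0.58 over the 9 genes against 0.04 over all. Ratios were -0.68 (-0.73 to -0.63) for Cd74, -0.70 (-0.80 to -0.60) for H2-Aa, -0.58 (-0.68 to -0.48) for H2-Ab1 and -0.49 (-0.60 to -0.37) for H2-Eb1. H2-DMa was at -0.63 (-0.87 to -0.40) and H2-DMb1 at -0.47 (-0.72 to -0.22). The direction was not the same in all parts of the monocytes. In cells with dendritic markers, Cd74, H2-Aa, H2-Ab1 and H2-Eb1 together were higher in HDCA+CLP than in CLP. They stood at 6488 CPM in 9 cells against 3351 CPM in 27 cells. In the non-classical range described below they were also higher in HDCA+CLP. Both of these parts hold few cells of HDCA+CLP. Ciita had a ratio of 0.80 (0.09 to 1.49), but its 29 UMIs in HDCA+CLP lay in 8 cells, 2.83% of monocytes, and its 49 UMIs in CLP lay in 31 cells, 4.23% of monocytes. The interval does not cover such clustering in a few cells. H2-DMb2 and H2-Oa had intervals that included 0, and H2-Ob, with 16 UMIs over both libraries, was not measured.

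Most of the class II RNA sat in a minority of monocytes. Without thinning, 36.7% of monocytes in HDCA+CLP, 28.5% in CLP and 43.0% in Sham had no UMI of Cd74, H2-Aa, H2-Ab1 and H2-Eb1. After thinning to 2000 UMIs, the median monocyte had 0 UMIs of the 4 genes in HDCA+CLP, 1 in CLP and 0 in Sham. At least 1 was found in 36.4%, 50.3% and 28.3% of thinned monocytes. Cells with 10 or more made up 11.1% (7.65 to 15.3) of monocytes in HDCA+CLP, 20.1% (17.2 to 23.2) in CLP and 5.24% (2.96 to 8.503) in Sham, on 31 of 280, 144 of 717 and 15 of 286 cells. The tenth of cells with the most held 82.9% of these UMIs in HDCA+CLP, 65.6% in CLP and 93.6% in Sham. T cells at the same depth reached 10 UMIs in 2, 0 and 1 cells. A larger share of monocytes thus had class II UMIs in CLP, and in Sham the RNA sat in fewer of them.

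The cells with 10 or more class II UMIs were compared with the other monocytes of their library for the same markers, without a test. F13a1, a marker of classical monocytes, was found in 32.3% of these cells and 69.5% of the others in HDCA+CLP, in 37.5% and 78.2% in CLP, and in 46.7% and 46.9% in Sham. Ly6c2 was found in 61.3% and 89.96% in HDCA+CLP, 63.2% and 86.0% in CLP, and 26.7% and 41.0% in Sham. HDCA+CLP and CLP thus had like values for F13a1 and Ly6c2. Ccr2, also a marker of classical monocytes, went the other way in each library. It was found in 41.9% and 39.0% in HDCA+CLP, 45.1% and 39.4% in CLP, and 93.3% and 58.7% in Sham. Csf1r, the CSF1 receptor, was found in 35.5% and 33.7% in HDCA+CLP, 52.1% and 28.8% in CLP, and 26.7% and 64.2% in Sham. F13a1 and Csf1r are part of the monocyte definition, so their shares among these cells depend on it. Cd209a, a marker of monocyte-derived dendritic cells, was found in no thinned monocyte of HDCA+CLP or CLP. In Sham it was found in 26.7% of the 15 cells with 10 or more class II UMIs and 1.11% of the others. Ciita UMIs numbered 3, 7 and 3 in the cells with 10 or more class II UMIs of HDCA+CLP, CLP and Sham. The far more numerous other cells held 0, 0 and 1. Cd79a was found in none of the cells with 10 or more class II UMIs in any library, against 0.402%, 0% and 1.48% of the other monocytes. Cells that also met the B cell definition, which includes Cd79a, had been left out, so these low shares follow in part from the selection.

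Cells with dendritic markers held most of the class II UMIs of Sham. Monocytes with a UMI of Flt3, Zbtb46, Xcr1, Clec9a, Cd209a or Siglech were 9 of 283 in HDCA+CLP, 27 of 733 in CLP and 42 of 291 in Sham, and held 18.0%, 5.98% and 60.8% of the UMIs of Cd74, H2-Aa, H2-Ab1 and H2-Eb1. Without them these 4 genes stood at 1422 CPM in HDCA+CLP, 2552 CPM in CLP and 921 CPM in Sham, a log2 ratio of CLP over Sham of 1.47 in place of 0.45. Cd74 was then at 860.1 CPM, 1500.0 CPM and 543 CPM. H2-DMa remained lower in CLP, at 46.3 CPM, 67.2 CPM and 164 CPM. Leaving out monocytes with any UMI of the B cell definition gave a log2 ratio of 1.00. After thinning it was 1.08, and in the classical range described below 0.26. Keeping the 13, 86 and 59 cells that also met another definition gave -0.12 instead, with all 10 genes lower in CLP, so the sign for the 4 genes rests on how such cells are treated. The 8 dendritic cell markers summed to 39.9 CPM, 55.3 CPM and 189 CPM over all monocytes, the 5 macrophage markers to 175 CPM, 323 CPM and 141 CPM, the 12 B cell markers to 13.1 CPM, 21.9 CPM and 122 CPM, and the 9 neutrophil markers to 10480.1 CPM, 7825 CPM and 1438 CPM. Beyond the cells left out here, the part of these RNAs in the result was not tested.

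The makeup of the monocytes also differed. Cells with more UMIs of Ly6c2 and Ccr2 than of Ace, Treml4, Cd300e and Spn, the classical range, were 90.1% of monocytes in HDCA+CLP, 86.5% in CLP and 59.8% in Sham, and 9.54%, 11.1% and 7.22% of monocytes lay within 2 UMIs of that limit. Within the classical range the 4 genes stood at 1434 CPM, 2401 CPM and 2008 CPM, and Cd74 at 828 CPM, 1404 CPM and 1052 CPM. H2-Aa was then slightly lower in CLP than in Sham, at 364 CPM against 390.3 CPM. In the opposite, non-classical range the order differed: the 4 genes stood at 7192 CPM in the 23 cells of HDCA+CLP, 5003 CPM in the 75 of CLP and 1676 CPM in the 114 of Sham. Cd74 was there at 3698 CPM (3359 to 4061), 2818 CPM (2689 to 2951) and 966 CPM (901 to 1035), and H2-Aa, H2-Ab1 and H2-Eb1 were also higher in HDCA+CLP than in CLP. Of the 23 cells of HDCA+CLP, 16 had a Cd74 UMI. The UMIs of H2-Aa, H2-Ab1 and H2-Eb1 lay in 6, 6 and 5 of them. The intervals do not cover such clustering, so the values of HDCA+CLP rest on few cells. Cells near the limit held much of the RNA: 31.6% of the UMIs of the 4 genes, at 12546 CPM, in HDCA+CLP, 13.5%, at 6118 CPM, in CLP and 0.760%, at 332 CPM, in Sham. H2-DMa in the classical range was at 48.7 CPM (41.8 to 56.4) in HDCA+CLP, 74.6 CPM (69.5 to 80.1) in CLP and 262 CPM (241 to 284) in Sham. In the non-classical range it was at 50.9 CPM (18.7 to 111) in HDCA+CLP, 81.5 CPM (60.9 to 107) in CLP and 72.5 CPM (55.4 to 93.1) in Sham. The lower H2-DMa of CLP was thus found in the classical range, and the other range showed no such difference at this depth.

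The proportions among the peptide-loading genes set B cells apart from monocytes. H2-DMb2 made up 76.9% (69.9 to 82.9) of the UMIs of H2-DMb1 and H2-DMb2 in B cells of HDCA+CLP, 75.3% (69.2 to 80.8) in CLP and 83.0% (82.1 to 83.9) in Sham. In monocytes its share was 4.73% (2.07 to 9.11), 3.82% (2.51 to 5.54) and 4.80% (2.50 to 8.23). H2-DMb1 alone reached B cell levels in monocytes, at 90.9%, 122% and 81.8% of the B cell CPM, whereas Cd74 stood at 11.7%, 22.1% and 6.82% of it and H2-DMb2 at 1.36%, 1.58% and 0.844%. B cells had 1.204 DM UMIs (H2-DMa, H2-DMb1 and H2-DMb2) for each DO UMI (H2-Oa and H2-Ob) in HDCA+CLP, 1.44 in CLP and 1.40 in Sham, and monocytes had 27.2, 28.7 and 22.6. The difference between the classes was far larger than that between libraries of a class. The transcripts of H2-DMb1 and H2-DMb2 are 73.5% identical over their length in the GENCODE annotation and share a run of 221 bases, but in their last 500 bases, where 3′ reads mostly fall, the longest shared run is 34 bases. No source used here says how the authors' counting treated reads that match both, so their split carries that uncertainty.

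**Figure D4:**
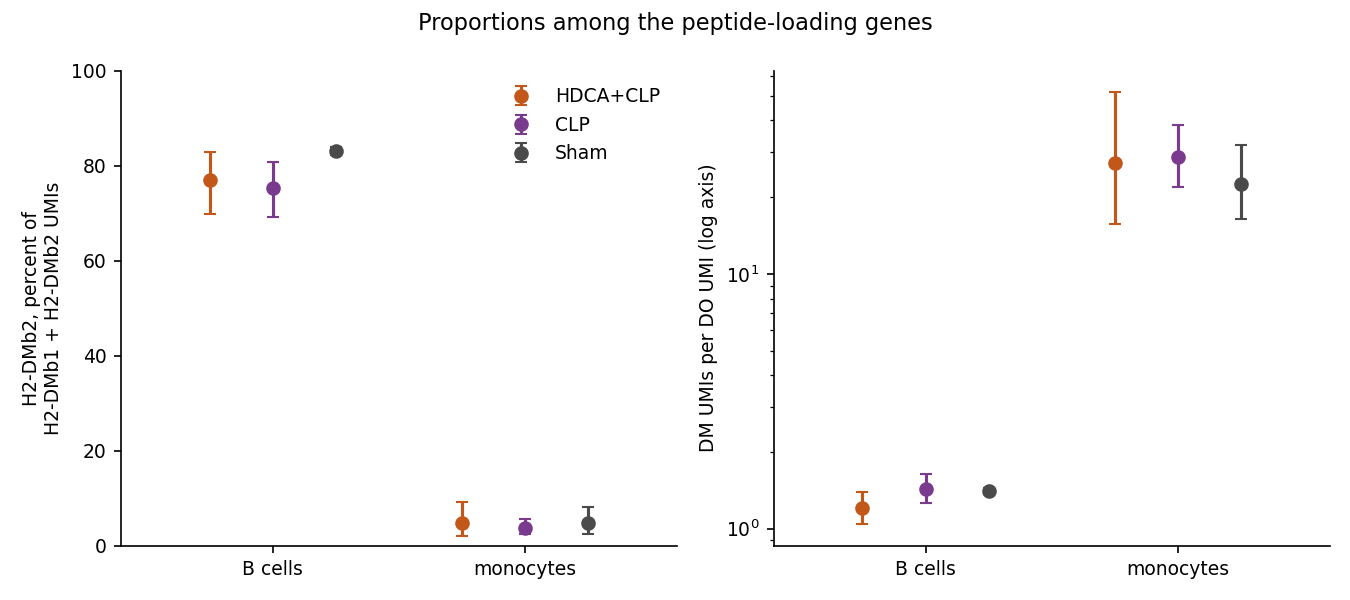
Share of H2-DMb2 among H2-DMb1 and H2-DMb2 UMIs (percent, left) and DM UMIs per DO UMI (log axis, right) in B cells and monocytes of HDCA+CLP, CLP and Sham, each point 1 library with its 95% interval. The shares lie between 75.3% and 83.0% in B cells and between 3.82% and 4.80% in monocytes.

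Within monocytes, Cd74 and the chain genes H2-Aa, H2-Ab1 and H2-Eb1 were found in part in the same cells. After thinning, 27 of 27 cells with H2-Aa had a Cd74 UMI in HDCA+CLP, 166 of 170 in CLP and 19 of 23 in Sham. The reverse did not hold. Of cells with Cd74, 27 of 100, 166 of 351 and 19 of 69 had an H2-Aa UMI in the same order. Spearman's rho over thinned cells lay between 0.54 and 0.76 for the 6 pairs of these 4 genes in HDCA+CLP (280 cells), between 0.66 and 0.76 in CLP (717 cells) and between 0.45 and 0.70 in Sham (286 cells). All 3 Ciita-positive cells of HDCA+CLP, all 6 of CLP and all 4 of Sham also had a UMI of the 4 genes, while rho of Ciita with their sum was 0.21, 0.16 and 0.23. H2-DMa reached 0.20, 0.19 and 0.21 with the same sum, and H2-DMb1 0.10, 0.23 and 0.20. H2-Oa, H2-Ob and H2-DMb2 were found in 0 to 7 thinned cells a library, too few to describe. Among 3583 other genes found in at least 5% of thinned monocytes of each library, those with the highest mean rho with the sum were H2-K1 (0.26), H2-D1 (0.26) and B2m (0.25), which encode class I chains, followed by Malat1, Fcer1g, Ly6i, Rgs1, Gngt2, Cd300c2 and Fcgr2b (0.23 to 0.20). These are weak values that differ between libraries: H2-K1 was at 0.26 in HDCA+CLP, 0.45 in CLP and 0.08 in Sham. The lowest mean rho, as large in size, were those of Fn1 (-0.29), Lcn2 (-0.28) and Slpi (-0.27), named after their values were seen. Cells of a library share its free RNA and depth range, so rho is a description.

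**Figure D5:**
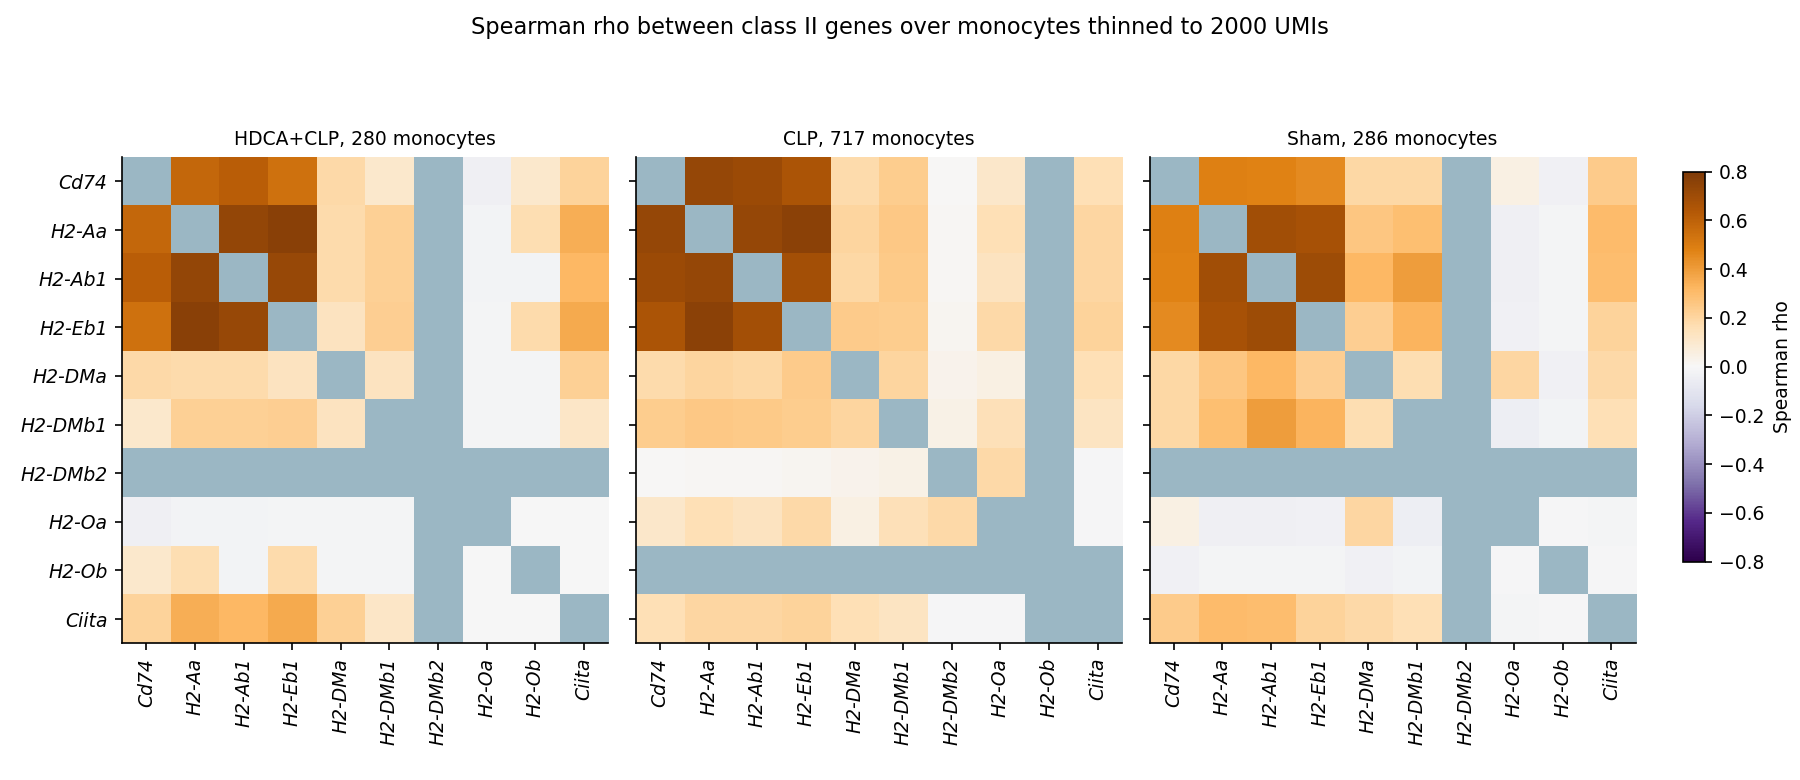
Spearman's rho between the 10 genes over monocytes thinned to 2000 UMIs, in HDCA+CLP (280 cells), CLP (717 cells) and Sham (286 cells); blue-grey squares are the diagonal or genes with no UMI. The block of Cd74, H2-Aa, H2-Ab1 and H2-Eb1 is dark in each library (rho from 0.45 to 0.76), and rho with the other genes is low.

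The lists of associated genes were split in monocytes as well. Over all measured genes 59.6% were lower in CLP than in Sham, 17% at least 2-fold lower and 11.1% at least 2-fold higher, with a median of -0.19. Of 7 promoter factors 6 were lower, 2 of them at least 2-fold (median -0.35): Nfya at 8.74 CPM in CLP and 22.7 CPM in Sham (-1.38, -1.83 to -0.91) and Creb1 at 33.3 CPM and 67.1 CPM (-1.01, -1.26 to -0.76). Nfyb was at 37.2 CPM and 22.7 CPM (0.71, 0.34 to 1.10). Of 8 measured regulators of Ciita, 2 were at least 2-fold higher and 2 at least 2-fold lower (median -0.51). Socs1 stood at 21.9 CPM in CLP and 4.27 CPM in Sham (2.35, 1.55 to 3.28) and Irf1 at 126 CPM and 52.3 CPM (1.27, 1.04 to 1.52). Irf4 was at 0.268 CPM, which is 3 UMIs, and 8.55 CPM (-5.00, -7.37 to -3.29), and Bcl6, a transcriptional repressor, at 12.0 CPM and 76.6 CPM (-2.68, -3.00 to -2.37).

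Ctsl, a protease that trims the invariant chain in thymic epithelium, was the processing gene with the highest ratio in monocytes, at 439 CPM in CLP and 96.3 CPM in Sham (2.19, 2.02 to 2.36). Ctsz was at 852 CPM and 535 CPM (0.67, 0.60 to 0.75), Cst3 at 1376 CPM and 2706 CPM (-0.98, -1.01 to -0.94) and Ctss at 1127 CPM and 1729 CPM (-0.62, -0.66 to -0.57). That list held 1 gene at least 2-fold higher and 0 at least 2-fold lower of 9 (median -0.28). Of 9 genes of turnover and costimulation, 3 were at least 2-fold higher and 2 at least 2-fold lower (median -0.33). Cd274 was at 66.8 CPM in CLP and 20.05 CPM in Sham (1.74, 1.36 to 2.14), Cd40 at 18.1 CPM and 4.27 CPM (2.08, 1.28 to 3.02), and Cd83 at 1.87 CPM and 6.57 CPM (-1.81, -2.77 to -0.85).

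Between HDCA+CLP and CLP no gene of these lists reached 2-fold in monocytes. Few genes did so at all: of 10241 measured genes, 1.56% were at least 2-fold higher and 2.8% at least 2-fold lower, with a median of 0.04. The list medians were -0.04 for 7 promoter factors, -0.25 for 7 regulators of Ciita, 0.09 for 9 processing genes and 0.23 for 8 genes of turnover and costimulation. Irf8 stood at 113 CPM in HDCA+CLP and 148 CPM in CLP (-0.39, -0.54 to -0.23). Lgmn was at 115 CPM and 186 CPM (-0.69, -0.84 to -0.54) and Cd40, an activating receptor, at 9.98 CPM and 18.1 CPM (-0.86, -1.40 to -0.35). Sppl2a, which clears the last fragment of the invariant chain, was at 191 CPM in HDCA+CLP and 144 CPM in CLP (0.41, 0.28 to 0.54).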

How the data were processed

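Blood cells were profiled with 10x Chromium 3′ v3 chemistry and paired-end sequencing, in 1 library per group. The authors deposited unnormalized UMI counts for each gene in each barcode, with Cell Ranger 5.0.1 named in the submitters' processing notes, beside R 4.0.3, Seurat 4.0.6 and the build mm39. No column belonged to samples outside the 3 labelled ones (0 columns).

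Barcodes were kept from 500 UMIs and 200 genes upward, unless over 10% of their UMIs were mitochondrial, and classes were set by the definitions in the results. A class was summed per library and given as CPM, with exact Poisson intervals; ratios have exact conditional binomial intervals and shares have Clopper-Pearson intervals, all at 95%. They cover counting error only. A gene counted as measured with at least 20 UMIs over both libraries, and as called at 2-fold or more. Cells were thinned to 2000 UMIs, and shallower cells left out, for shares of cells and for rho. Cells that met 2 of the 3 definitions were removed as likely doublets, and a caller based on simulated doublets was an alternative. Python 3.11.15, NumPy 2.4.6, SciPy 1.17.1, pandas 2.3.3, scikit-learn 1.9.0 and matplotlib 3.10.9 were used, and the scripts were tested on simulated data. From each gene list, up to 3 genes on either side whose interval lay farthest from 0 could be named. Some list and marker genes are not reported here and were left out of the list and marker values. The genes, gene lists, markers and comparisons were chosen with earlier results of these data known.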

Additional observations from a re-analysis of the deposited data

Results flagged for a closer look

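On the CPM scale Cd74 and the chain genes H2-Aa, H2-Ab1 and H2-Eb1 had opposite signs in the 2 cell classes. Between CLP and Sham, the log2 ratio in monocytes minus that in B cells was 1.70 for Cd74, 1.09 for H2-Aa, 1.47 for H2-Ab1 and 1.34 for H2-Eb1, each gene being higher in CLP in monocytes and lower in B cells. Between HDCA+CLP and CLP, the same difference was -0.91 for Cd74, -0.90 for H2-Aa, -0.84 for H2-Ab1 and -0.69 for H2-Eb1, each gene being lower in HDCA+CLP in monocytes and higher in B cells. With 1 library a group the difference between the classes was not tested. Both sets of values use the CLP library. When cells that met 2 definitions were kept, none of the 4 genes was higher in monocytes of CLP than of Sham. In the classical range H2-Aa was at -0.10 in monocytes. Relative to the B cell markers, the 4 genes in B cells were at 0.07 to 0.32 for CLP over Sham. For HDCA+CLP over CLP they were at -0.19 to -0.13. On that scale the B cell signs were those of the monocytes in both comparisons.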

How the results depend on the processing

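In B cells the median log2 ratio of CLP over Sham over the 10 genes was -1.06, with 5 genes at least 2-fold lower. It was -0.95 with size factors, -0.86 as a mean over cells, -0.96 without immunoglobulin, mitochondrial and ribosomal genes in the total, -0.82 after thinning, -1.26 with cells meeting 2 definitions kept, -0.97 without simulated doublets, -1.39 with a mitochondrial limit of 5%, -0.97 without Jchain cells and -0.92 relative to all genes. The count was 3 as a mean over cells and after thinning, and 10 with cells meeting 2 definitions kept, with the 5% limit and at 1.5-fold. Relative to the B cell markers the median was 0.15, the count was 0 and 7 genes changed sign: of those at least 2-fold lower Cd74 (0.080) and H2-Ab1 (0.068), and also H2-Aa, H2-Eb1, H2-DMa, H2-DMb1 and H2-Oa (0.22 to 0.40). The median of HDCA+CLP over CLP, 0.22, was 0.078 as a mean over cells, 0.49 with cells meeting 2 definitions kept, 0.42 with the 5% limit and -0.17 relative to the B cell markers. In monocytes the median of CLP over Sham, -0.59, was 0.92 after thinning, 0.24 with at least 100 UMIs a gene, 0.29 without cells with a UMI of the B cell definition, -0.092 as a mean over cells, -0.068 without dendritic marker cells, -0.11 with the T cell level subtracted, -0.39 with size factors, -0.33 without simulated doublets and -1.03 with cells meeting 2 definitions kept. Its count of 3 was 1 after thinning and with at least 100 UMIs, which leave fewer genes, 2 with size factors, as a mean over cells, with the T cell level subtracted, without dendritic marker cells, without cells with a UMI of the B cell definition and relative to all genes, and 5 with cells meeting 2 definitions kept, in the classical range and at 1.5-fold. The count of 0 for HDCA+CLP over CLP was 1 as a mean over cells, after thinning, without simulated doublets and with the T cell level subtracted, 2 without dendritic marker cells (median -0.80) and 4 at 1.5-fold. The median rho of 6 pairs was 0.64 in CLP thinned to 1000 UMIs, against 0.72, and 0.43 in Sham without dendritic marker cells, against 0.58. Other than where named, the cause was not tested. Over all settings, 436 of 600 single-gene ratios lay within the counting interval of the reported value, 162 lay outside it, and 2 reversed a ratio of at least 2-fold. The settings with at least 100 UMIs a gene and with no filter on low counts leave each single-gene ratio unchanged. Their ratios are among the 436 by construction, so that number overstates the agreement. The classical range, Jchain cells and the scales relative to all genes and to B cell markers were added after seeing the data. No paired analysis was possible because each group is 1 library. Depth limits H2-DMb2, H2-Oa, H2-Ob and Ciita in monocytes, which rest on 5 to 49 UMIs a library.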

Other observations

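H2-DMa was also found in NK cells (at least 3 UMIs of NK cell genes), at 39.2 CPM in HDCA+CLP, 36.7 CPM in CLP and 20.2 CPM in Sham, where Cd74, H2-Aa, H2-Ab1 and H2-Eb1 together had 43.3 CPM, 25.7 CPM and 55.0 CPM. In cells with at least 5% of UMIs from S100a8 and S100a9, these 4 genes had 33.3 CPM, 60.6 CPM and 633 CPM. B cell markers summed to 18.9 CPM, 30.03 CPM and 378 CPM in the same cells. In the 256 such cells of Sham, Cd74 was at 1.29, H2-Aa at 1.04, H2-Ab1 at 1.02 and H2-Eb1 at 1.12 times the level scaled from B cell RNA alone.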
